A study of Mus musculus with 16 samples.

Results

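Messenger RNA levels of 9 transcription factors of the macrophage lineage were followed in bone marrow-derived macrophages (BMDMs) exposed to tumor-derived factors, a JAK inhibitor and an IKK inhibitor. The 9 genes are Spi1, which encodes PU.1, the C/EBP genes Cebpa, Cebpb, Cebpd and Cebpe, the MAF genes Maf and Maff, and the MEF2 genes Mef2a and Mef2c. They were listed by name, with earlier results of these data known, and were found by Ensembl identifier among the 55487 genes of the deposited count table. All 9 were among the 12372 genes that were tested. The cells were macrophages grown from the marrow of WT Balb/c mice aged 8 weeks. In the DMEM group (2 samples) they received plain medium, and in the DMEM + Rux group (3 samples) plain medium with ruxolitinib, an inhibitor of JAK1 and JAK2. In the CM group (3 samples) they received conditioned medium of 4T1 cells, a mouse mammary tumor line that also arose in Balb/c mice. In the CM + Rux group (3 samples with a 4 h label) they received 4T1 medium with 0.5 μM ruxolitinib, and 2 further samples of this treatment carry a 2 h label. The study's text describes 4 h for RNA and does not say what the 2 h label refers to, so that 2 h and 4 h are used below as sample labels and not as known treatment times. In the CM + Rux + IKK-16 group (3 samples) 0.8 μM IKK-16 was added, which inhibits the kinases that activate NF-κB. Cells were serum starved before CM according to the study's methods, which do not say so of plain medium, and no group lacks a gene or carries a transgene.

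PU.1 opens the regulatory regions of myeloid genes and is required for the formation of macrophages, and its partners there are the C/EBP proteins, which bind DNA as dimers through a leucine zipper. C/EBPα acts in myeloid commitment and is antagonistic to proliferation, C/EBPβ and C/EBPδ act in acute-phase and inflammatory transcription, and C/EBPε acts in the granule genes of maturing neutrophils. c-MAF is a large MAF protein with its own activation domain that is known for its role in resident macrophages and in Il10 transcription. MAFF is a small MAF protein that lacks such a domain and pairs with CNC factors such as NRF2. MEF2A and MEF2C are MADS-box factors that are held in check by class IIa histone deacetylases.

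Between 18449388 and 46215853 fragments per sample were assigned to genes. Values are CPM, the usual counts scaled to a common library total, here with totals adjusted by relative log expression (RLE). A gene was called at an adjusted p-value (Benjamini-Hochberg, edgeR quasi-likelihood test) under 0.05 and a log2 fold change beyond 0.5. The samples of a group are numbered in the labels, but whether the numbers mark separate mice or cultures is not stated, so p-values measure only the spread between these samples. The 8 macrophage markers examined were all above 1 CPM in each group and summed to between 40149 and 57183 CPM. Ly6g, Krt14 and Krt5, which mark neutrophils and epithelial cells, had 0 counts in every sample. Summed markers reached at most 1.45 CPM for epithelial cells (0.692 to 1.45 in CM, 0 to 0.118 in DMEM), 0.233 CPM for B cells, 0.163 CPM for mast cells and basophils, 3.75 CPM for T cells (nearly all Lck) and 20.9 CPM for fibroblasts. Relative to library totals alone, RLE scaling shifted the log2 fold changes upward by a median of 0.31 when CM was compared with DMEM and of 0.30 when CM + Rux was compared with DMEM + Rux. The shift was -0.11 for CM + Rux + IKK-16 against CM. In bulk RNA, fewer cells that express a gene and less RNA of it per cell cannot be told apart. The 2 DMEM samples differed from each other in several members, so that results against DMEM are also given with single samples left out where it matters.

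Per length, Spi1 was the most abundant of the 9 transcripts in every group. In DMEM it reached 154 ± 25.8 CPM per kb of exon (SD, n = 2). Maf followed at 35.7 ± 13.1, Cebpa at 25.9 ± 2.0, Cebpb at 19.9 ± 8.58, Mef2a at 10.7 ± 2.21, Mef2c at 8.90 ± 0.488 and Cebpd at 7.19 ± 3.35 CPM per kb (SD, n = 2). Maff at 0.989 ± 0.439 and Cebpe at 0.398 ± 0.0907 CPM per kb (SD, n = 2) were the least abundant. Among the members from Maf down to Cebpd, neighbours in this order lay within or close to each other's spread in DMEM. In CM the order was another one. Spi1 at 211 ± 9.29 CPM per kb (SD, n = 3) was followed by Cebpb at 143 ± 16.6, Maf at 28.8 ± 3.47, Maff at 22.3 ± 3.61 and Cebpa at 13.6 ± 2.37 CPM per kb (SD, n = 3). Mef2a had 9.78 ± 0.760, Cebpd 6.26 ± 0.881, Mef2c 1.11 ± 0.134 and Cebpe 0.656 ± 0.0535 CPM per kb (SD, n = 3). Cebpb thus stood next to Spi1 in CM, and Mef2c, which was close to Mef2a in DMEM, stood near the bottom.

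**Figure D1:**
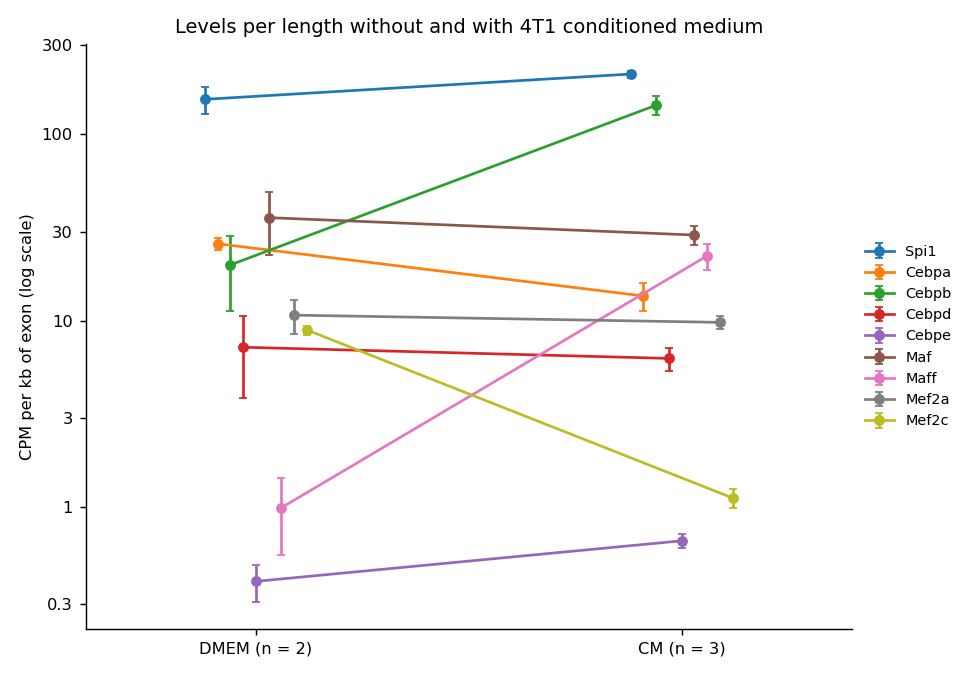
Mean CPM per kb of exon (log axis) of the 9 genes in BMDMs in DMEM (n = 2) and in 4T1 conditioned medium (CM, n = 3), with bars for the SD and a line for each gene. The lines of Cebpb and Maff rise (19.9 to 143 and 0.989 to 22.3 CPM per kb), that of Mef2c falls (8.90 to 1.11), and Spi1 stays on top in both groups.

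Tumor-conditioned medium was first compared with DMEM to see how soluble factors of 4T1 cells alter the lineage factors. Cebpb and Maff rose, and Cebpa and Mef2c fell. Of the 9 members, 4 were called, with 2 higher and 2 lower. Of all genes tested, 45.0% were called in this comparison, 20.9% higher and 24.1% lower, so that 4 of 9 is near the share over all genes. Without the fold change threshold 5 of 9 members passed, beside 61.8% of all genes. The median log2 fold change was -0.13 over the members and -0.0050 over all genes.

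Spi1 (ENSMUSG00000002111, chr2:91082390-91115756 of GRCm38) had 465 and 366 CPM in the DMEM samples and 596, 549 and 559 CPM in the CM samples. All CM samples lay above both DMEM samples. The log2 fold change was 0.45 (standard error 0.09), with an adjusted p of 0.00061 by the edgeR quasi-likelihood test, and lay under the fold change threshold. With single samples left out it ranged from 0.29 to 0.63, highest without DMEM replicate 1. Under scaling by total counts it was 0.14 (adjusted p = 0.25, edgeR). In CM + Rux the 4 h samples had 618, 572 and 599 CPM and the 2 h samples 651 and 626 CPM, beside 357, 362 and 356 CPM in DMEM + Rux.

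Cebpb (ENSMUSG00000056501, chr2:167688915-167690418) had 39.0 and 20.8 CPM in DMEM and 223, 236 and 188 CPM in CM. The lowest CM sample was far above the highest DMEM sample. The gene rose 7.17-fold, a log2 fold change of 2.84 ± 0.24 (standard error, edgeR adjusted p = 3.1e-07). It stayed high in CM with ruxolitinib alone and with both inhibitors. No sample received IKK-16 without ruxolitinib. The 4 h CM + Rux samples had 198, 212 and 165 CPM, the 2 h samples 194 and 153 CPM, and the CM + Rux + IKK-16 samples 162, 178 and 146 CPM. Those of DMEM + Rux had 23.6, 17.8 and 23.1 CPM.

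Cebpa (ENSMUSG00000034957, chr7:35119293-35121928) moved the other way. It had 64.4 and 71.9 CPM in DMEM and 33.4, 31.0 and 42.8 CPM in CM, with no overlap between the groups. Its log2 fold change was -0.93 ± 0.16 (standard error, edgeR adjusted p = 0.00022), a level 1.91-fold lower. Cebpd (ENSMUSG00000071637, chr16:15887286-15891031) had 35.8 and 18.05 CPM in DMEM and 26.5, 19.9 and 23.9 CPM in CM, so that the CM samples lay between the DMEM samples. The log2 fold change was -0.21 (95% interval from -0.90 upward to 0.48, adjusted p = 0.59, edgeR). It ranged from -0.62 to 0.37 with single samples left out, highest without DMEM replicate 1.

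Cebpe (ENSMUSG00000052435, chr14:54710360-54712174) was near the limit of what was counted, with 7 to 47 fragments per sample. It passed the filter through 2 samples only, 1 of CM + Rux at 4 h (1.14 CPM) and 1 of CM + Rux + IKK-16 (1.07 CPM). It had 0.414 and 0.573 CPM in DMEM and 0.779, 0.891 and 0.774 CPM in CM, which did not overlap. The log2 fold change of 0.75 (standard error 0.39) did not pass (adjusted p = 0.11, edgeR). Neutrophil markers, of which 9 were examined, were summed at 2.31 to 3.56 CPM in DMEM and 9.33 to 10.2 CPM in CM. Mmp8 held most of that sum, Ly6g was at 0, and their part in the Cebpe values was not tested.

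**Figure D2:**
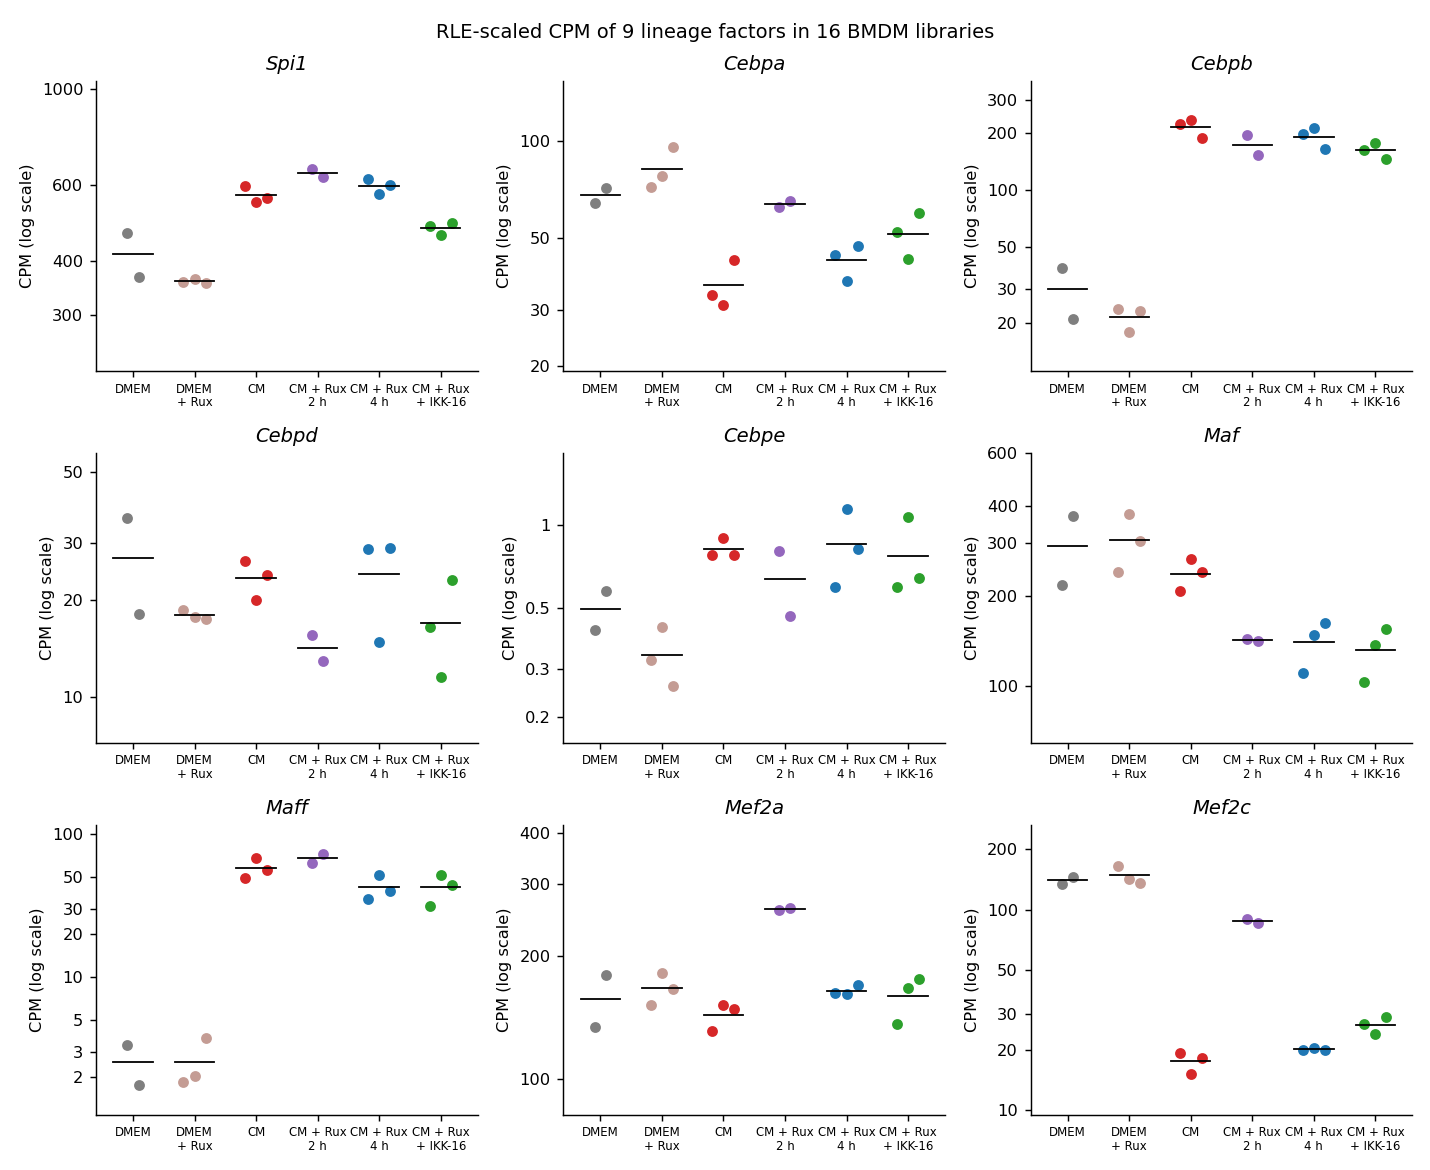
CPM (RLE-scaled, log axis) of the 9 genes in the 16 libraries, 1 point per library and a line at the mean of each of the 6 groups. The groups with CM sit well above the DMEM groups for Cebpb and Maff, Mef2c is lowest in CM (15.2 to 19.2 CPM) and intermediate at the 2 h label (85.8 and 89.8 CPM), and Maf is lower in the CM + Rux groups than in CM.

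Maff (ENSMUSG00000042622, chr15:79346621-79359076) showed the largest fold change of the 9 genes. It had 3.37 and 1.76 CPM in DMEM and 49.1, 67.7 and 56.4 CPM in CM. It rose 21.9-fold, a log2 fold change of 4.46 ± 0.35 (standard error, edgeR adjusted p = 1.5e-07). Maf (ENSMUSG00000055435, chr8:115682942-115707794) had 218 and 371 CPM in DMEM and 208, 265 and 239 CPM in CM. The groups overlapped, and the log2 fold change of -0.31 (standard error 0.24) did not pass (adjusted p = 0.27, edgeR). The sign depended on the DMEM sample left out, with -0.64 without DMEM replicate 1 and 0.12 without DMEM replicate 2. Under scaling by total counts Maf was called lower, at -0.62 (adjusted p = 0.022, edgeR).

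Mef2c (ENSMUSG00000005583, chr13:83504034-83667080) had 134 and 145 CPM in DMEM and 19.2, 15.2 and 18.2 CPM in CM. Its log2 fold change was -3.00 ± 0.11 (standard error, edgeR adjusted p = 8.8e-10), a level 8.01-fold lower, and had the smallest p-value of the 9 genes. Mef2a (ENSMUSG00000030557, chr7:67231163-67372858), which encodes a factor of the same family, had 134 and 180 CPM in DMEM and 131, 151 and 148 CPM in CM. These overlapped, with a log2 fold change of -0.13 (95% interval from -0.40 upward to 0.14, adjusted p = 0.40, edgeR). No exon base of any member is shared with another gene on the same strand.

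**Figure D3:**
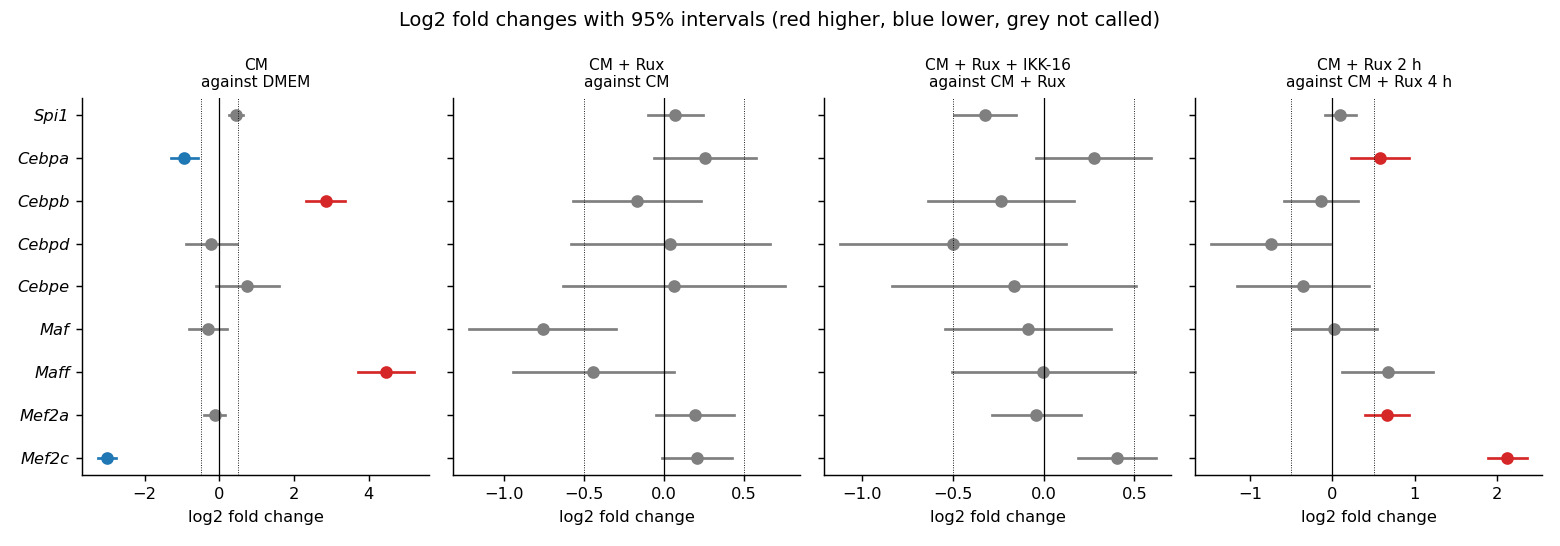
Log2 fold changes (x axis) of the 9 genes (y axis) in 4 comparisons, with 95% intervals from the edgeR fit, dotted lines at 0.5 in either direction, red for genes called higher, blue for genes called lower and grey for the others. The changes in CM against DMEM span -3.00 to 4.46, and those of ruxolitinib or IKK-16 within CM reach -0.76 (Maf) at the most.

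The promoters of the 3 genes with called changes beyond 1 on the log2 scale are shown because their transcripts moved most with CM. They are the 250 bases before a transcription start in RefSeq (GRCm38.p6, plus strand), without bases that belong to an exon of the same gene, in lower case with matches in capitals. Both strands were searched for TTCNNNGAA (the core of STAT sites), TTGCNNAA (C/EBP), GAGGAA (PU.1), TGANTCA (AP-1), TGACGTCA (CRE, bound by CREB and ATF factors) and the NF-κB consensus. RefSeq windows were found for 5 of the 9 members. Maff and Mef2c each have 3 starts in RefSeq, of which all are shown for Maff and the first for Mef2c, and start 1 of Maff and those shown for Cebpb and Mef2c are the gene starts of the count table.
Cebpb, chr2:167688665-167688914: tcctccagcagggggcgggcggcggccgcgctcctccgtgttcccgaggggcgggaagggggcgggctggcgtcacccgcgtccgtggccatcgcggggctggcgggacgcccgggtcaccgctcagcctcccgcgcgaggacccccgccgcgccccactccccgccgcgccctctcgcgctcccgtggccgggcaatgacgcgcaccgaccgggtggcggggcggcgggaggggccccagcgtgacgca
Maff, start 1, chr15:79346371-79346620: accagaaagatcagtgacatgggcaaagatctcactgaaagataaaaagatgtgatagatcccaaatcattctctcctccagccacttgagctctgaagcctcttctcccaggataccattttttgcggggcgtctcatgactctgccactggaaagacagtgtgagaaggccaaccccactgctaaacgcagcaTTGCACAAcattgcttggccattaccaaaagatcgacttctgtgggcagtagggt
Maff, start 2, chr15:79347270-79347519: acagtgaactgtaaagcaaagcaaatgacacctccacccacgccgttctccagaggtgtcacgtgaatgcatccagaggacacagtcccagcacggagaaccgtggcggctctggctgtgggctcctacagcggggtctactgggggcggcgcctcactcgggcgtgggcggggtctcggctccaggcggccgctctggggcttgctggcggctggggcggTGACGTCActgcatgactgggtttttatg
Maff, start 3, chr15:79348247-79348401: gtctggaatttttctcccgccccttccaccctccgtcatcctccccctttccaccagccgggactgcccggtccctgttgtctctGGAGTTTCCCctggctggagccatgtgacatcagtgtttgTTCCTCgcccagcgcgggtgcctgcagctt
Mef2c, chr13:83503784-83504033: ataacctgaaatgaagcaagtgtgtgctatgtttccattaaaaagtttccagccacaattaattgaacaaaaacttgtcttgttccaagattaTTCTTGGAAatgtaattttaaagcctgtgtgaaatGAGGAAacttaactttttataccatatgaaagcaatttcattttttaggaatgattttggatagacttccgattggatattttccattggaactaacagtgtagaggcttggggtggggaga
The Cebpb window is rich in G and C and held none of these letters. The Maff windows held a C/EBP match 55 to 48 bases before start 1, a CRE match 29 to 22 bases before start 2, and an NF-κB match 70 to 61 bases and a PU.1 match 30 to 25 bases before start 3, the last 2 on the minus strand. The Mef2c window at start 1 held a STAT match 157 to 149 bases and a PU.1 match 122 to 117 bases before the start. Of the Mef2c windows not shown, that of start 2 held a PU.1 match 186 to 181 bases before it, within exon bases of the gene, and that of start 3 an AP-1 match 137 to 131 bases before it. Of 32851 windows of this length in RefSeq, 7.02% held the STAT letters, 9.56% those of C/EBP, 23.3% those of PU.1, 6.75% those of AP-1, 1.55% the CRE and 3.90% the NF-κB consensus. A match describes the letters only, and no binding was measured in these samples.

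Ratios between members of a family within a library do not depend on how libraries are scaled, and they separated the media. The ratio of Cebpb to Cebpa in CPM per kb was 1.06 and 0.507 in DMEM and 0.397 to 0.571 in DMEM + Rux. In CM it was 11.7, 13.3 and 7.68. It was 6.12 to 10.1 in CM + Rux at 4 h, 4.11 and 5.44 at 2 h and 4.29 to 7.27 with IKK-16. The ratio of Maff to Maf was at most 0.0492 without CM and at least 0.749 with CM. It was 1.39 and 1.64 in the 2 h samples, above all others. The ratio of Mef2a to Mef2c was 0.977 to 1.36 without CM, 7.29 to 10.7 in CM, 8.45 to 9.06 in CM + Rux at 4 h, and 3.09 and 3.27 at 2 h. These ratios are given as a description.

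**Figure D4:**
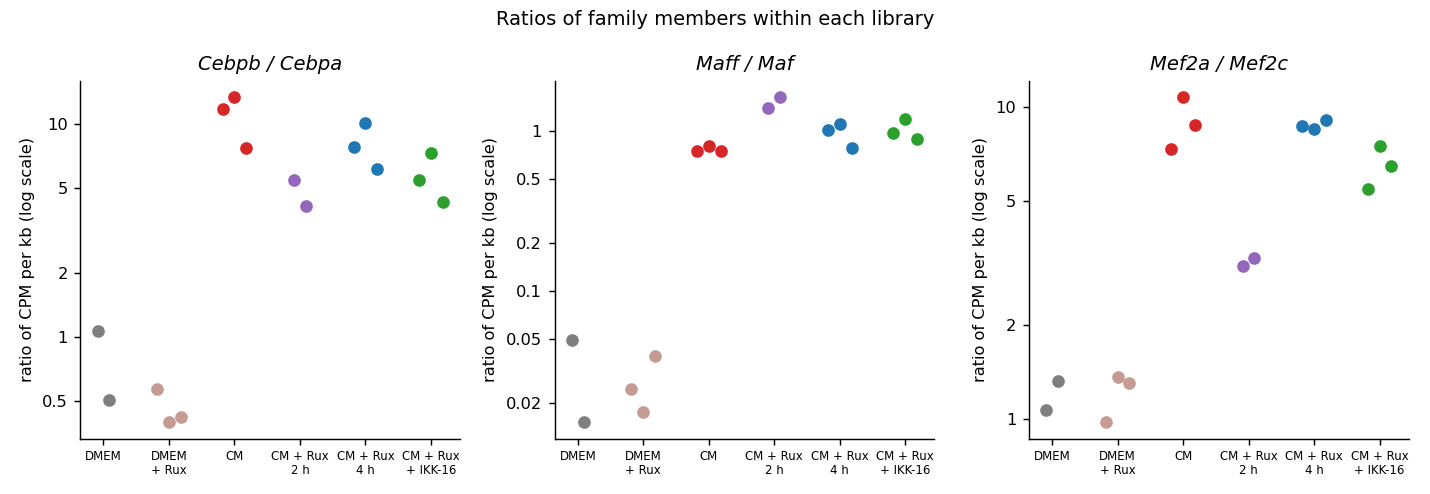
Ratio of CPM per kb (log axis) of Cebpb to Cebpa, Maff to Maf and Mef2a to Mef2c in each of the 16 libraries, 1 point per library, by group. The 5 libraries without CM lie below all 11 libraries with CM in each panel, and the 2 h libraries lie between them for Mef2a to Mef2c (3.09 and 3.27).

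Conditioned medium was also compared with DMEM in the presence of ruxolitinib. Here 7 of 9 members were called, with 4 higher and 3 lower, against 47.3% of all genes (22.3% higher and 25.0% lower). Without the fold change threshold the number was again 7, beside 66.5% of all genes. Cebpb rose by 3.16, Maff by 4.05, Spi1 by 0.73 and Cebpe by 1.31 on the log2 scale, and Mef2c fell by 2.88, Maf by 1.13 and Cebpa by 0.95. The edgeR adjusted p was 0.0046 for Cebpe, 0.00034 for Maf and smaller for the other 5. Spi1 lost the call under scaling by total counts, with a log2 fold change of 0.43. Cebpe had 0.323, 0.424 and 0.259 CPM in DMEM + Rux and 0.593, 1.14 and 0.814 CPM in CM + Rux, and the call rests on these low levels and on a filter it passed through a CM + Rux sample. Without CM + Rux replicate 2 at 4 h or CM + Rux + IKK-16 replicate 2, or with only both groups in the fit, Cebpe failed the filter and had no value. Cebpa had 72.3, 78.3 and 96.2 CPM in DMEM + Rux and 44.4, 36.9 and 47.2 CPM in CM + Rux, and Maff had 1.85, 2.05 and 3.76 CPM in DMEM + Rux and 35.4, 52.0 and 40.0 CPM in CM + Rux, both without overlap. The Maf samples had 241, 375 and 306 CPM in DMEM + Rux and 110, 148 and 162 CPM in CM + Rux, without overlap. Cebpd at 0.43 (adjusted p = 0.21, edgeR) and Mef2a at -0.02 (adjusted p = 0.88, edgeR) did not pass. Without CM + Rux replicate 2 at 4 h, Cebpd was called at 0.69 (adjusted p = 0.039, edgeR).

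Ruxolitinib was then compared with its absence to see which lineage factors respond to JAK inhibition. In CM, none of the 9 members was called by edgeR in the main fit, which has no block for the replicate number, beside 3.33% of all genes (412). With the block and only both groups in the fit, edgeR called 1 member, Maf, and 863 of all genes. Maf alone had an unadjusted p under 0.05, and DESeq2 called 1 member, which was Maf. Its samples, at 208, 265 and 239 CPM in CM and 110, 148 and 162 CPM in CM + Rux, did not overlap, and each numbered pair went down. The log2 fold change was -0.76 (standard error 0.21), 1.70-fold lower, with an adjusted p of 0.063 by edgeR. With the replicate number as a block the log2 fold change was -0.77, past the threshold. The adjusted p was 1.3e-06 with only both groups in the fit and 1e-04 over all samples (both edgeR). The same-numbered samples of CM and CM + Rux deviated together from their group means, with correlations of 0.53 to 0.72 over genes. The blocked fit of only both groups thus applies here, while that over all samples also blocks groups not taken as paired. The adjusted p ranged from 1.3e-06 to 0.25 over all alternatives. Without a block it was 0.010 with DESeq2 and 0.042 with only both groups in the edgeR fit. It was 0.21 when CM replicate 2 was left out and 0.25 when CM + Rux replicate 1 was (edgeR). The 2 h samples, at 143 and 142 CPM, also lay below the CM samples.

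No other member passed between CM and CM + Rux. Maff overlapped between CM and CM + Rux at 4 h, with a log2 fold change of -0.44 (95% interval from -0.95 upward to 0.06, edgeR adjusted p = 0.41). For Cebpb the difference was -0.17 (95% interval from -0.57 upward to 0.23), for Cebpa 0.26 (-0.06 to 0.58), for Spi1 0.07 (-0.10 to 0.24) and for Mef2c 0.21 (-0.01 to 0.43). Those of Cebpd, Cebpe and Mef2a were 0.04, 0.06 and 0.19, with adjusted p-values of 0.48 to 0.98.

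In plain medium, ruxolitinib likewise gave 0 called members, beside 0.970% of all genes, with 0 by DESeq2. Spi1 at -0.21 and Cebpb at -0.49 had unadjusted p-values of 0.031 and 0.041 and adjusted p-values of 0.85 and 0.92 (edgeR). The Cebpb difference was 0.04 without DMEM replicate 1, which had the highest Cebpb level of the samples without CM. The effect of ruxolitinib in CM minus that in DMEM was called for 0 members, beside 0.412% of all genes, with 0 by DESeq2. Spi1 (0.28) and Maf (-0.83) had an unadjusted p under 0.05, at 0.032 and 0.022, and adjusted p-values of 0.47 and 0.40. With the replicate block, Maf passed, at -0.79 (adjusted p = 0.0067, edgeR), though plain medium has only 2 numbered pairs and was not taken as paired.

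IKK-16 was added to CM + Rux to ask which transcripts depend on the kinases upstream of NF-κB. None of the 9 members was called by edgeR in the main fit or by DESeq2, both without a block. Of all genes, 7.74% were called in the main fit, 4.07% higher and 3.66% lower. The members at an unadjusted p under 0.05 were Spi1 and Mef2c, which also passed the adjusted p, so that 2 of 9 passed without the fold change threshold, beside 14.4% of all genes. Spi1 had 481, 460 and 488 CPM with IKK-16, each below the lowest CM + Rux sample at 4 h, with a log2 fold change of -0.32 ± 0.08 (standard error, edgeR adjusted p = 0.014). Mef2c had 26.8, 23.8 and 29.2 CPM with IKK-16 beside 19.9 to 20.5 CPM in CM + Rux, also without overlap, with a log2 fold change of 0.40 ± 0.10 (standard error, edgeR adjusted p = 0.015). Both lay nearer to their DMEM levels with IKK-16 than without it. For Spi1 the 3 samples lay around DMEM replicate 1 (465 CPM). They stayed above DMEM replicate 2 (366 CPM) and above the DMEM + Rux samples (356 to 362 CPM). For Mef2c the samples with IKK-16 stayed far below the lowest DMEM sample (134 CPM). Cebpb at -0.24 (95% interval from -0.64 upward to 0.16), Maf at -0.09 (-0.55 to 0.37) and Cebpd at -0.50 (-1.12 to 0.12) did not pass. Cebpd had 28.8, 14.8 and 29.0 CPM in CM + Rux and 16.4, 11.501 and 23.0 CPM with IKK-16, lower in each numbered pair though the groups overlap. The numbers pair these samples too, with correlations of 0.59 to 0.70, and with the replicate number as a block Cebpd had an adjusted p of 0.11 over all samples (log2 fold change -0.49) and passed at 0.0012 (-0.50, edgeR) with only both groups in the fit. Maff had 31.6, 51.9 and 44.0 CPM with IKK-16 and a difference of -0.0024 (-0.51 to 0.50).

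With both inhibitors against CM alone, 3 of 9 members were called, beside 12.7% of all genes. Mef2c rose by 0.61 (adjusted p = 8e-04) and Cebpa by 0.53 (adjusted p = 0.019) on the log2 scale, and Maf fell by 0.85 (adjusted p = 0.012, all edgeR). Cebpa had 52.3, 43.0 and 59.8 CPM with both inhibitors, the lowest of which touched the highest CM sample at 42.8 CPM. Maf had 103, 137 and 155 CPM. Spi1 passed at -0.25 only without the fold change threshold (adjusted p = 0.034, edgeR), where 23.1% of all genes passed. The Cebpa call was lost without CM replicate 1 or 2 or without replicate 1 or 3 of CM + Rux + IKK-16, with log2 fold changes of 0.42 to 0.53. The Maf call was lost without CM + Rux + IKK-16 replicate 1, at -0.70 (adjusted p = 0.060, edgeR).

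The samples with a 2 h label were compared with those with a 4 h label, both in CM + Rux. Of the members 3 were called, each higher at 2 h, beside 23.3% of all genes, of which 12.6% were higher and 10.7% lower. Mef2c had 89.8 and 85.8 CPM at 2 h and between 19.9 and 20.5 CPM in the 3 samples at 4 h, a log2 fold change of 2.12 ± 0.11 (standard error, edgeR adjusted p = 4.6e-08). Its 2 h level was between that of DMEM + Rux, at 166, 143 and 136 CPM, and that at 4 h. Mef2a had 259 and 262 CPM at 2 h, above all of the other 14 samples, and 162, 162 and 169 CPM at 4 h, a log2 fold change of 0.67 ± 0.13 (standard error, edgeR adjusted p = 0.0010). Cebpa had 62.7 and 65.3 CPM at 2 h and 44.4, 36.9 and 47.2 CPM at 4 h, a log2 fold change of 0.58 ± 0.16 (standard error, edgeR adjusted p = 0.012). The Cebpa call was lost without 2 h replicate 3 (0.55, adjusted p = 0.072) or 4 h replicate 2 (0.48).

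Cebpb and Maff were high in the 2 h samples too. Cebpb, at 194 and 153 CPM, differed from 4 h by -0.14 (95% interval from -0.59 upward to 0.31). Maff had 62.7 and 72.9 CPM at 2 h, all above the 4 h samples, with a log2 fold change of 0.67 ± 0.26 (standard error, edgeR adjusted p = 0.055). DESeq2 and edgeR without the filter on low counts called 5 members, with Maff higher and Cebpd lower in addition. Cebpd had 15.5 and 12.9 CPM at 2 h and 28.8, 14.8 and 29.0 CPM at 4 h, a log2 fold change of -0.75 (adjusted p = 0.094, edgeR). Maf differed by 0.02 (-0.49 to 0.54). Of 7 dendritic cell markers, the summed level was 13.9 and 17.3 CPM at 2 h and 7.28 to 11.1 CPM at 4 h. Zbtb46 made up 10.1 CPM of it at 2 h, Flt3 was at 0 there, and the part of these transcripts in the member values was not tested.

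Of 6 tested relatives of the members, 1 rose and 0 fell in CM. This was Mef2d, a further MEF2 gene, by 0.74 (adjusted p = 6e-05, edgeR). The small MAF genes Mafk and Mafg had log2 fold changes of -0.28 and 0.46, under the fold change threshold. In CM + Rux against CM 0 of 6 relatives passed. With IKK-16, Mafk rose by 0.65 (adjusted p = 0.00066, edgeR). At 2 h, Mafg and Spic, a PU.1 relative, were lower than at 4 h, with log2 fold changes of -0.70 for Mafg and -1.47 for Spic.

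Of 14 partners and regulators, 5 rose and 4 fell in CM. Nfe2, a CNC partner of small MAF proteins, rose by 2.24, and Trib1, which directs C/EBPα to degradation, rose by 1.90. Nfe2 levels were low, at 0.164 and 0.473 CPM in DMEM and a mean of 1.64 CPM in CM. Hdac9, a class IIa deacetylase that binds MEF2 and is itself a MEF2 target, fell by 1.46, and Mapk14, the p38α kinase that acts on MEF2, fell by 1.21. The list had 0 called genes with ruxolitinib and 1 with IKK-16, where Bach2, a repressor that pairs with small MAF proteins, rose by 1.19. Hdac9 was 3.07 higher at 2 h than at 4 h on the log2 scale (adjusted p = 3.3e-06, edgeR). Of the 14 genes, 3 were higher and 2 lower there.

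Of 13 other lineage factors, 6 rose and 4 fell in CM. Id2 rose by 3.04, and Gfi1, with at most 3 counts in a DMEM sample, was at 0.951 CPM in CM. Pparg, a factor of alveolar and lipid-handling macrophages, fell by 4.34, and Bhlhe41 fell by 1.79. Gfi1 rose a further 2.50 with ruxolitinib and fell by 2.81 with IKK-16. Irf8, a partner of PU.1, fell by 0.90 with ruxolitinib (adjusted p = 0.00012, edgeR). With IKK-16, Bhlhe41 rose by 1.32 and Mitf fell by 0.80. At 2 h against 4 h, 5 of the 13 were higher, among them Pparg (1.93) and Irf4 (1.22), and 0 were lower.

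Target genes of these factors were taken from hand-written lists, and no list was tested as a set. Of 15 macrophage targets of PU.1 and C/EBP, 5 rose and 1 fell in CM, with a median log2 fold change of 0.10 beside the -0.0050 over all genes. Cd14 rose by 2.68 and Msr1 by 2.44, and Csf1r, the receptor for M-CSF, fell by 0.61. With ruxolitinib 0 rose and 3 fell, among them Tlr4 by 1.04 and Csf3r by 0.66. With IKK-16, Tlr4 rose by 0.68 and Msr1 fell by 0.55. At 2 h against 4 h, 0 of the 15 were higher and 2 lower, Tlr4 (-0.90) and Msr1 (-0.57).

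All 11 tested acute-phase and inflammatory targets of C/EBP rose in CM, with a median log2 fold change of 6.57, also with genes near 0 counts set to a floor of 3 counts. Il6 and Csf3 had 0 counts in both DMEM samples and 219 and 37.5 CPM in CM, at least 1782-fold and 306-fold higher than a count of 3 per library would be. These bounds cover counting error only. With ruxolitinib 0 of the 11 was called, with a median of -0.31. With IKK-16 0 rose and 6 fell, with a median of -1.33. Lcn2 and Saa3, which encode acute-phase proteins, each fell by 3.19. Cebpb and Cebpd had no call in the main fit. Cebpd was at -0.50, lower in each numbered pair, and was called in the blocked fit of only both groups. At 2 h, 7 of the 11 were lower than at 4 h while the Cebpb samples overlapped. Cebpd was at -0.75 there, called with DESeq2 but not in the main fit. How the targets relate to either factor was not tested.

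Of 8 listed granule genes that C/EBPε is known to control, Ltf, Camp, Ngp and Chil3 failed the filter on low counts and were not tested. The 4 tested ones, Lcn2, Mmp8, Mmp9 and Itgam, all rose in CM. Lcn2 rose by 5.84, from 0.0409 and 0.384 CPM in DMEM to a mean of 13.8 CPM in CM, and Mmp8 rose by 1.49. They are not particular to that factor, since Lcn2 is in the previous list and Itgam is a macrophage marker. With ruxolitinib 0 of 4 was called, and with IKK-16 the only call was Lcn2. At 2 h against 4 h, 0 of the 4 were higher and 2 lower, Lcn2 and Mmp9.

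Of 7 MAF targets, 1 rose and 1 fell in CM, Il10 by 4.77 and Cd163 by 1.64. Levels were low for Il10 in DMEM (0.414 and 0.982 CPM) and for Cd163 in CM (a mean of 0.501 CPM). With ruxolitinib Mrc1 fell by 1.36 (adjusted p = 0.011, edgeR). Il10 went the other way there, at 1.95, but did not pass (adjusted p = 0.068, edgeR), and the list median was -0.09. With IKK-16 Il10 fell by 3.04. The complement genes C1qa, C1qb and C1qc were not called in these 3 comparisons. At 2 h against 4 h, Mrc1 (0.93) and C1qc (0.52) were called higher and 0 of the 7 lower, with a list median of 0.52. Of 10 NRF2 and small MAF targets, 4 rose and 1 fell in CM. Slc7a11, a cystine carrier, rose by 4.06, Txnrd1 rose by 1.10, and Nqo1 fell by 1.19. None was called with ruxolitinib, and Osgin1 rose by 0.68 with IKK-16. At 2 h against 4 h, 0 of the 10 were higher and 6 lower, with a median of -1.09. Of 5 MEF2 targets, 2 rose and 2 fell in CM, with Hdac9 as above. Nr4a1 rose by 3.10, Tmem119 rose by 2.71 and Klf2 fell by 1.95. Tmem119 had only 0.502 and 0.982 CPM in DMEM and a mean of 4.72 CPM in CM. With IKK-16, Jun rose by 0.54 and Nr4a1 fell by 1.76. At 2 h against 4 h, 2 of the 5 were higher, Hdac9 and Klf2 (1.67), and 1 was lower, Jun (-1.26), while Nr4a1 at 0.82 and Tmem119 at -1.01 did not pass.

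**Figure D5:**
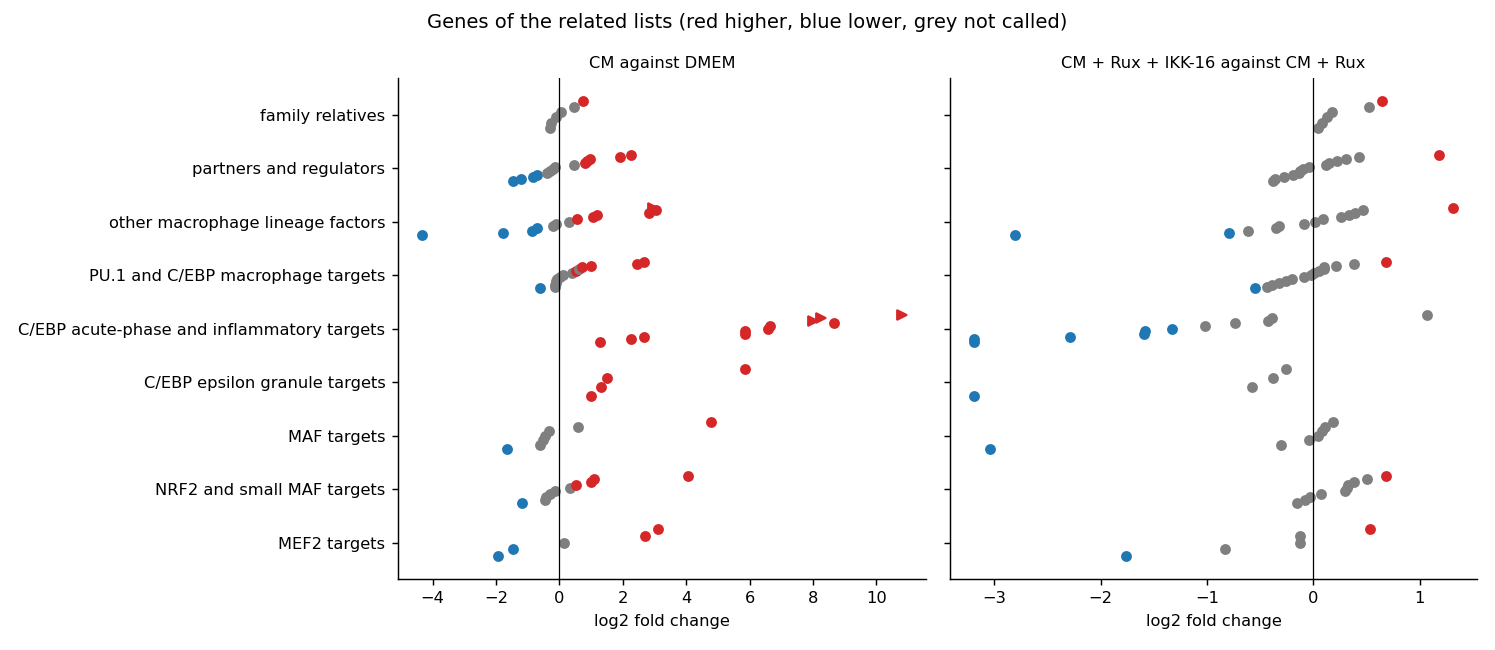
Log2 fold changes (x axis) of the genes in 9 related lists (y axis) in CM against DMEM and in CM + Rux + IKK-16 against CM + Rux, 1 point per gene, red for higher, blue for lower and grey for not called. Triangles mark genes with at most 3 counts in each DMEM sample, drawn with that floor in place of DMEM. All 11 acute-phase targets lie right of 0 in the left panel, and 6 lie left of 0 as called in the right one.

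The genes whose levels were most like those of each member over the 16 samples were found by Pearson correlation of log2(CPM + 0.5), leaving out genes whose mean was under 5 CPM. For genes that differ between media this r follows largely the gap between samples with and without CM, and it is a description only. Cebpb was most like Cxcl2 (r = 0.99), Socs3 and Cd14, and Maff most like Zc3h12a (r = 0.99), Sh2b2 and Kdm6b. Mef2c was most like Ptpra (r = 0.995), Etl4 and Cyp27a1, Cebpa most like Cpt1a (r = 0.97), Abhd4 and Washc2, and Spi1 most like Gpr18 (r = 0.98), Zbtb7a and Dnaja1. Mef2a was most like Mtmr1 (r = 0.95), Mbnl2 and Lpcat1, and Cebpe most like Agtpbp1 (r = 0.93), Arl3 and Eif4e2. Maf, at 0.91 with Rab11fip5, followed by Eepd1 and Eng, and Cebpd, at 0.82 with Pou2f2, followed by Tesk1 and Smarcc2, had the lowest values of their closest gene.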

How the data were processed

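RNA of 16 BMDM samples was sequenced from stranded TruSeq libraries. The authors trimmed reads with Trimmomatic 0.33, aligned them to GRCm38 with HISAT2 2.1.0 and counted fragments per Ensembl gene with featureCounts 1.6.2 (reverse-stranded, both ends mapped, mapping quality of at least 10). They deposited whole-number counts without scaling, 18449388 to 46215853 per sample. Columns were matched to the sample titles. Replicates differed by more than counting noise, so no sample was a copy of another.

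Symbols were found for 55141 of 55487 identifiers in a GENCODE table, and the 346 others held at most 0.0459% of a sample's counts. Counts were scaled by RLE, the filter kept genes with over 1 CPM in 2 or more samples, and all 16 samples were fitted in 1 model of 6 groups with the quasi-likelihood test of edgeR 4.0.16 (limma 3.58.1, R 4.3.3), with Benjamini-Hochberg adjustment over 12372 genes. The script was tested on simulated data. The thresholds follow the study's methods. CPM per kb uses the exon length in the count table. Fragments of multiple alignments were not counted. A listed gene with at most 3 counts in every sample of a group was given a floor of 3 counts there. The floor was used for bounds, for list medians with a floor and for the figure of the lists, not for edgeR fold changes. Floors and bounds cover counting error only.

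The members, the hand-written lists of relatives, partners, targets and cell markers and the naming rule were chosen with earlier results of these data known. All members are named, and from each list the 2 genes with the largest rise and the 2 with the largest fall among those called. Genes named at 2 h were chosen after their values were seen. Replicate numbers were taken to pair samples in 4 comparisons with 3 pairs each, where deviations from group means of same-numbered samples correlated at 0.16 to 0.72. Alternatives were TMM, total counts, other filters, a replicate block, only the groups compared, DESeq2 1.42.0, no fold threshold, each sample left out and, chosen after seeing the data, both 2 h samples left out. Promoters came from RefSeq (GRCm38.p6). Protein sequences were not used here, and 1 gene of the list of relatives is not reported here. Python 3.11.15, pandas 2.3.3 and matplotlib 3.10.9 were used.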

Additional observations from a re-analysis of the deposited data

Results flagged for a closer look

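The effect of ruxolitinib on Maf differed between media in the fit with the replicate number as a block, with a log2 difference (CM minus DMEM) of -0.79 (adjusted p = 0.0067, edgeR quasi-likelihood test). Without the block it was -0.83 (adjusted p = 0.40, edgeR). Maf was lower with ruxolitinib in 3 of 3 numbered pairs in CM. In plain medium only 2 numbered pairs exist, and the numbers were not taken to pair samples there. The values were 218 and 241 CPM for number 1 and 371 and 375 CPM for number 2.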

How the results depend on the processing

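Of 17 called values of members, 13 kept their call and direction in each alternative that gave them a value, and 0 changed sign. Cebpe in CM + Rux against DMEM + Rux is among them, though it passed the filter only through samples with CM + Rux, with or without IKK-16. Alternatives that drop such a sample, or keep only both groups, gave it no value. Its call could not be lost there and does not count as stable. Members called in CM + Rux against CM went from 0 to 1 (Maf) under total counts, no filter on low counts, the replicate block, only the groups compared with or without the block, and DESeq2, and to 0 to 1 with single samples left out (1 without DMEM replicate 1 or 2). Of all genes, 412 were called in the main fit. The named alternatives, from total counts to DESeq2, called 434, 685, 745, 863, 315 and 546 in this order. In the difference of ruxolitinib effects the number of members went from 0 to 1 (Maf) without the filter and with the replicate block in either set of samples. There 349, 444 and 329 of all genes were called, beside 51 in the main fit. With IKK-16 against CM + Rux the number of members went from 0 to 1 (Cebpd, -0.50) with the block in only the groups compared (1422 of all genes, beside 957 in the main fit). It went to 2 without the fold change threshold (1778 of all genes). With IKK-16 against CM it was 1 to 3 with single samples left out, lowest without CM + Rux + IKK-16 replicate 1. Without that sample 1136 of all genes were called, beside 1575 in the main fit. At 2 h against 4 h the number of members went from 3 to 5 without the filter and with DESeq2. These called 3177 and 2947 of all genes, beside 2883 in the main fit. The replicate block also added Cebpe in CM against DMEM (0.77, adjusted p = 0.035) and Maff at 2 h against 4 h (0.56, adjusted p = 0.040, both edgeR), where only 2 pairs exist, and changed no other call. In deviations from group means, and among samples of other groups only, all 16 samples correlated best with a sample of their own number. Without both 2 h samples the counts of called members were the same.

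The signs that turned all belong to values that were not called. With the block in all samples and in only the groups compared, Cebpd in CM + Rux against CM was -0.0028 and -0.019, Cebpa in the difference of ruxolitinib effects 0.098 and 0.12, and Maf at 2 h against 4 h -0.12 and -0.093. Under total counts the last was -0.042, Cebpe with IKK-16 against CM was 0.0082, and with IKK-16 against CM + Rux Mef2a was 0.041 and Maff 0.085. Maff there was 0.014 with TMM and 0.011 with only the groups compared. With single samples left out, the ranges that cross 0 in CM against DMEM were -0.62 to 0.37 for Cebpd, -0.64 to 0.12 for Maf and -0.33 to 0.099 for Mef2a. In DMEM + Rux against DMEM they were -0.87 to 0.039 for Cebpb, -0.27 to 0.50 for Maf, -0.42 to 0.54 for Maff, -0.11 to 0.31 for Mef2a and -0.0017 to 0.14 for Mef2c. In the difference of ruxolitinib effects they were -0.11 to 0.14 for Cebpa, -0.21 to 0.70 for Cebpb and -0.12 to 0.30 for Mef2a. In CM + Rux, the range against DMEM + Rux was -0.088 to 0.047 for Mef2a, and against CM it was -0.11 to 0.31 for Cebpd. With IKK-16 against CM + Rux the ranges were -0.24 to 0.062 for Maf, -0.17 to 0.17 for Maff and -0.12 to 0.061 for Mef2a, and against CM -0.15 to 0.057 for Cebpe. At 2 h against 4 h they were -0.33 to 0.021 for Cebpb and -0.12 to 0.14 for Maf. The causes were not tested. Cebpe could not be fitted without CM + Rux replicate 2 at 4 h, without CM + Rux + IKK-16 replicate 2 or, except with IKK-16 against CM + Rux, with only the groups compared, since it then failed the filter, and its 7 to 47 counts limit what can be said of it.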
